A study of Macaca fascicularis with 28 samples.

Results

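The bottom fraction of circumvallate (CV) taste buds (TB) was compared with the lingual epithelium (LE) that surrounds CV papillae in cynomolgus macaques (Macaca fascicularis). The comparison used 8 of the 28 arrays of the series, 4 of the bottom fraction and 4 of LE, chosen by their tissue labels. The 4 bottom samples came from animals 7 to 10, 1 male and 3 females that were all 3 years old. The 4 LE samples, numbered 7 to 10 in the labels, came from animals 1, 5, 3 and 4, 2 females aged 4 and 3 years and 2 males aged 3.8 and 2.6 years. The labels name no treatment, and the study states that the tissue was taken post-mortem from animals due to be euthanized for unrelated reasons. Each sample was 1 pool of laser-captured areas from 1 animal, cut from stained sections of the tongue, so that a fraction is a region drawn by eye and not a sorted cell type. The bottom samples belong to the second set of arrays of the study and the LE samples to the first, and no animal gave both tissues. Tissue, animal and array set therefore cannot be told apart in the direct comparison. A pair of further groups of 4 samples was used beside them. The top fraction of CV TB came from animals 7 to 10 and the second array set, and whole CV TB came from animals 1, 3, 4 and 5 and the first array set.

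Taste buds are clusters of short-lived epithelial cells that are renewed throughout life from progenitors near the base of the bud. Their mature cells are grouped into glia-like type I cells, type II cells that detect sweet, umami and bitter compounds through G protein-coupled receptors, and type III cells that respond to acids and form synapses with nerve fibers. Rounded post-mitotic precursors at the base express Sonic hedgehog and mature into these types, whereas the stratified epithelium around the papilla forms layers of flattened keratinocytes with a cornified envelope. In these bulk samples, fewer cells of a type and less RNA per cell cannot be told apart.

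Of 52024 probe sets, 21254 reached 25 units of the deposited intensity, the minimum used by the study, in at least 4 of the 8 samples and were tested. In the bottom fraction 2703 probe sets (12.7%) were higher and 1914 (9.01%) were lower than in LE when both an adjusted p of 0.05 or less and a difference of 5-fold or more were required. With every array centred on its median, which moved the bottom fraction by 0.31 on the log2 scale relative to LE, 2140 were higher and 2365 lower, so that the higher share of calls went from 58.5% to 47.5%. By the adjusted p alone, 5776 probe sets (27.2%) were higher and 4602 (21.7%) lower, and these shares are the background for the gene lists described here. The median log2 change over all tested probe sets was 0.13. Correlations of log2 values were 0.86 to 0.92 among bottom samples and 0.46 to 0.58 between bottom and LE samples. Among LE samples, sample 7 correlated with the others at 0.83 to 0.86, whereas samples 8 to 10 correlated with each other at 0.91 or above. Without LE sample 7, 2462 probe sets were higher.

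The largest differences were found in secreted factors and taste cell genes on one side and in genes of differentiated keratinocytes on the other. CXCL14, a chemokine of epithelia, read 7827, 9126, 6089 and 7560 units in bottom samples 1 to 4 and 11.6, 5.46, 23.0 and 4.88 units in LE samples 7 to 10, a log2 change of 9.69 ± 0.49 (SE) or at least 303-fold. The study names this probe set CXCL14, whereas the annotation of the array names it TPM2, so its identity is uncertain. By in situ hybridization the study saw CXCL14 RNA in many cells of macaque CV TB and none in LE beside them. It also reports CXCL14 by qPCR in human taste buds, with data not shown. Neurotensin (NTS), a secreted neuropeptide, read 2435, 1808, 4232 and 3980 units in the bottom fraction and 8.86, 6.37, 5.62 and 6.24 units in LE. TGFB2, a growth factor of the transforming growth factor β family, read 3300, 4255, 2196 and 4824 units in the bottom fraction and 6.59 to 12.4 units in LE (8.65 ± 0.35). IGF1, insulin-like growth factor 1, read 2531, 3266, 1655 and 2883 units in the bottom fraction and 6.65, 9.03, 14.3 and 8.76 units in LE. All 4 of these factors were under 25 units in every LE sample. Their groups did not overlap, which was a condition for being chosen among the largest changes. Folds compare geometric means after values under 25 were raised to 25. Where the dimmer group held such values and the ratio of arithmetic means was no smaller, the fold is given as a lower bound.

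Of the 10 genes that rose most 9 are described, and the other members were TAS2R14 (bitter receptor), AVIL (advillin, a villin-type actin-binding protein), CPE (carboxypeptidase E, which trims prohormones), GSTO1 (glutathione transferase omega) and a probe set annotated as TPM2 (tropomyosin). Their log2 changes lay between 7.69 ± 0.28 (GSTO1) and 8.10 ± 0.33 (TAS2R14). CPE was the only one with an LE value well above 25 units, 164 units in LE sample 7. Of 3 further TPM2 probe sets tested, 2 rose.

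The 10 genes that fell most were all bright in LE, at 529 units or more in every sample, and under 100 units in every bottom sample except LORICRIN in sample 3. TMPRSS11E, a membrane-bound serine protease of squamous epithelium, read 3219, 4012, 2945 and 2041 units in LE and 15.3, 4.34, 4.68 and 3.15 units in the bottom fraction (-9.05 ± 0.49). MAL, a lipid raft protein of differentiated epithelia, read 9868, 9076, 8772 and 8793 units in LE and 10.8, 15.2, 18.1 and 59.8 units in the bottom fraction. The cytokines IL36A and IL18 were at least 235-fold and at least 52.5-fold lower. KLK6 (kallikrein protease), LORICRIN (main cornified envelope protein), SERPINB2 and SPINK7 (protease inhibitors), KRTAP3-3 and GSG1 completed the set. Loricrin was the least even of them, with 5.07, 4.73, 179 and 20.2 units in bottom samples 1 to 4.

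**Figure D1:**
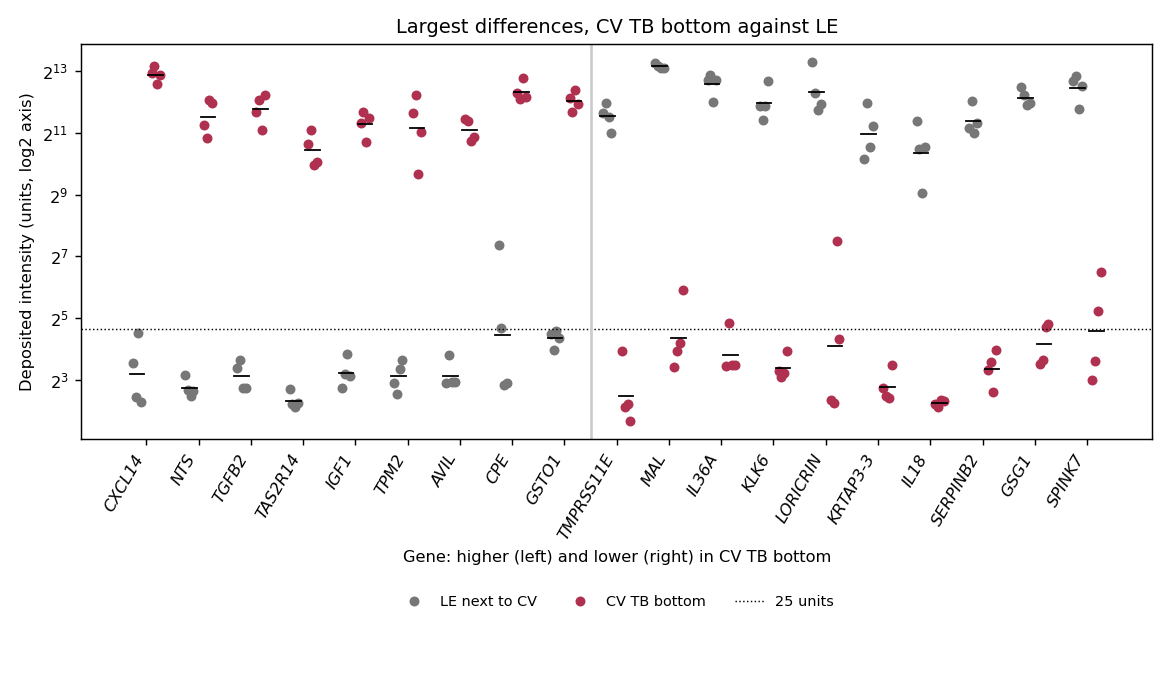
Deposited intensity (units, log2 axis) of 9 of the 10 genes with the largest higher and the 10 with the largest lower log2 change in the bottom fraction, with 1 point per sample, 4 LE and 4 bottom samples, geometric means as bars and the 25-unit minimum as a dotted line. The 19 genes were chosen among those whose bottom and LE samples do not overlap, and LE sample 7 reads 164 units for CPE.

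Type II cell genes were higher in the bottom fraction than in LE. Of 15 members of the type II transduction list, 12 were tested, 11 rose and none fell, with a median log2 change of 6.12. A gene dim in LE entered the test only by reaching 25 units in all 4 bottom samples, so that this and the counts of other lists describe the lists and do not test them. PLCB2, the phospholipase C of the taste cascade, read 5677, 5144, 5381 and 5017 units in the bottom fraction and 22.1, 54.9, 56.5 and 83.5 units in LE, 105-fold higher (6.76 ± 0.40). GNAT3 (gustducin α subunit) read 719, 1419, 440.1 and 355 units in bottom samples 1 to 4 and 4.12 to 5.32 units in LE. GNG13 and GNB3, its βγ partners, rose by 7.18 ± 0.33 and 7.05 ± 0.32 on the log2 scale. The cation channel TRPM5 rose by 2.45 ± 0.35, the sodium channel SCN3A by 7.04 ± 0.41, the ATP release channel subunit CALHM3 by 4.82 ± 0.26, and POU2F3, the transcription factor that specifies type II cells in mice, by 5.49 ± 0.37. PDE1C, a phosphodiesterase, rose by 7.00 ± 0.48, although the annotation of the array gives NIF3L1 for its probe set. GNB1, a widely expressed β subunit, read 866 ± 135 against 741 ± 160.0 units (mean ± SD, n = 4) and did not pass (adjusted p = 0.496, 0.121 to 0.88 over the alternatives). Of 2 other tested GNB1 probe sets, 1 rose and 1 fell.

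Few taste receptors reached the minimum. Of 23 receptors named on the array, 6 were tested, and all 6 rose with no overlap between the groups, which 25.3% of all probe sets also showed. All but TAS1R1 were under 25 units in every LE sample. The filter admitted them only with all 4 bottom samples at 25 units or more, so their lack of overlap was fixed in advance. The same holds for any other tested gene under 25 units in every LE sample. TAS2R14 read 1591, 2163, 994 and 1054 units in the bottom fraction and 6.56, 4.64, 4.35 and 4.80 units in LE. TAS2R42 read 288, 245, 363 and 204 units, at least 10.8-fold above LE, and TAS2R4 read 127, 239, 316 and 133 units. TAS2R48 read 65.1, 64.3, 63.7 and 197 units in bottom samples 1 to 4 and 3.61 to 10.6 units in LE. TAS2R8 was close to the minimum at 29.6, 50.4, 34.2 and 27.6 units, and TAS1R1, the umami receptor, read 60.3, 67.8, 55.6 and 138 units against 38.8, 20.6, 19.1 and 30.3 units in LE. The calls of these last 2 were lost under an alternative, TAS2R8 with values under 25 raised to 25 (adjusted p 3.84e-06 to 0.163 over the alternatives) and TAS1R1 within array sets (adjusted p 0.00759 to 0.666), and 1 other tested TAS1R1 probe set did not pass. Of the 17 receptors not tested, 14 read under 25 units in all 8 samples.

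Some of these genes were brighter still in the top fraction of the same buds. Between the fractions, 188 of 24398 probe sets (0.771%) were higher in the bottom and 204 (0.836%) higher in the top by the adjusted p of a fit with the animal as a block. GNAT3 read 2338, 2404, 1718 and 1544 units in the top fraction of the same animals, 3.11-fold higher (bottom minus top -1.64 ± 0.29, adjusted p = 0.0354). CALHM3, GNA14 (a Gα subunit) and PDE1C were also lower in the bottom than in the top, by 3.3-fold, 4.33-fold and 5.3-fold. Of 15 receptors in this fit, 7 were lower and none higher in the bottom, among them TAS2R42 (839, 1063, 860.2 and 1067 units in the top), TAS2R8 and TAS2R10. TAS2R10 read 84.6, 60.8, 27.8 and 20.9 units in the bottom and 255, 418, 369 and 124 units in the top. Each of these differences held in all 4 animals but was lost when any 1 of them was left out. For PLCB2 the difference between the fractions was -0.56 ± 0.31 and did not pass (adjusted p = 0.462).

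Most tested genes of type III and type I cells were also higher, with 1 member of each list lower. Of 15 type III members 9 were tested, 7 rose and 1 fell. SYT1, a synaptic vesicle calcium sensor, rose by 7.19 ± 0.30 and the P/Q-type calcium channel CACNA1A by 5.34 ± 0.28. PKD2L1, a channel that marks sour-sensing cells, read 129, 94.9, 136 and 140.3 units against 41.6, 12.4, 17.5 and 32.6 units in LE. DDC, which makes serotonin and dopamine from their precursors, rose by 4.41 ± 0.71, with BMP2K as the annotated name of its probe set, and KCNJ2 and NCAM1 rose by 3.96 ± 0.56 and 3.59 ± 0.77. Of 3 other tested NCAM1 probe sets, 0 rose and 1 fell, and with the brightest probe set of each gene 6 type III genes rose and 2 fell. SLC18A2, a vesicular monoamine transporter, was the member that fell (-1.51 ± 0.53, adjusted p = 0.0393), and 12 of the alternatives lost that call, among them those without LE samples 8, 9 or 10 or without bottom samples 1, 2 or 3 (adjusted p 0.0027 to 0.124). CHGA read 505, 51.6, 82.6 and 140.5 units in the bottom and 64.1, 45.3, 26.6 and 68.6 units in LE and did not pass, and its probe set is annotated as TFPI2. Of 9 type I members 5 were tested and 3 rose. HEY1, a Notch target, rose by 7.57 ± 0.26 with 2111, 2048, 1498 and 2107 units in the bottom fraction, while HES1, another Notch target, fell by 1.11 ± 0.28 from 210.2, 189, 339.6 and 207 units in LE to 113, 87.9, 114 and 113 units. IGFBP5, which binds insulin-like growth factors, and SLC1A3, a glutamate transporter of glia-like cells, rose by 4.35 ± 0.31 and 3.45 ± 0.61. ENTPD2, the ecto-ATPase that marks type I cells, did not pass (-0.56 ± 0.31).

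Of 10 granins and prohormone processing genes 7 were tested and 5 rose, led by CPE and SCG5 (3662, 3490, 2184 and 4032 units in the bottom fraction and 11.9, 12.2, 23.2 and 34.0 units in LE). Of 15 genes of the vesicle release machinery 8 were tested and 6 rose, among them RIMS2 (5.70 ± 0.37), a scaffold of the presynaptic active zone, and UNC13B (3.98 ± 0.35), a priming factor. Of 24 neuronal adhesion and guidance genes 14 were tested and 11 rose. NRCAM, an immunoglobulin-type adhesion molecule, read 842, 920.0, 1295 and 833 units in the bottom fraction and 4.08 to 9.63 units in LE. PTPRD, a receptor phosphatase, rose by 6.58 ± 0.83, and its LE values were 5.03, 89.6, 6.09 and 8.03 units. EPHA7, an ephrin receptor, and CNTN4, a contactin, rose by 5.67 ± 0.31 and 5.14 ± 0.43. These counts depended on the names and probe sets of the study, which were chosen as higher in TB on these samples. With names from the array annotation alone, 1 of 2 granin genes rose, 2 of 5 vesicle genes rose and 1 fell, and 4 of 9 neuronal adhesion genes rose and 1 fell.

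**Figure D2:**
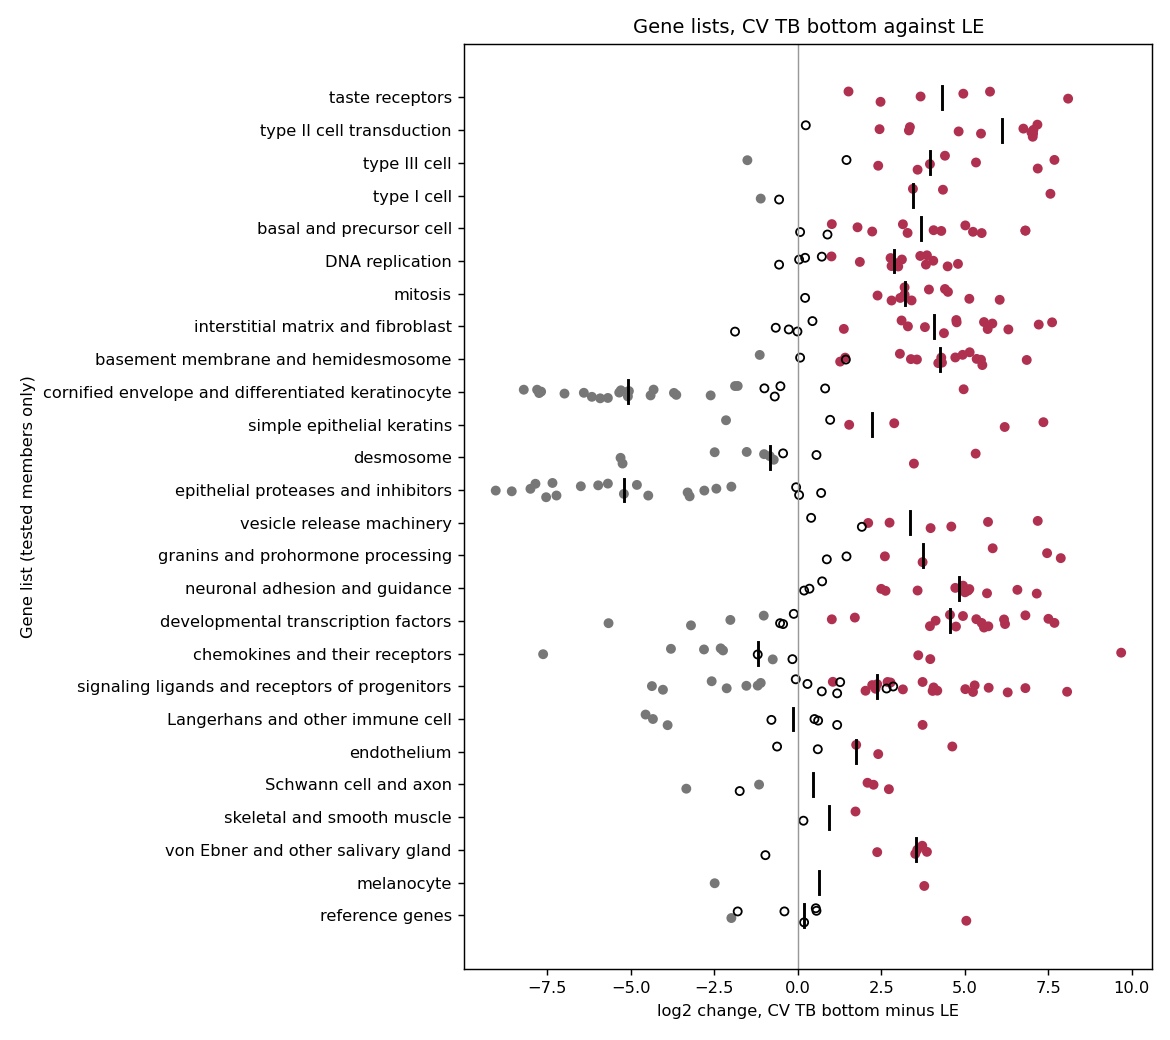
log2 change of the bottom fraction over LE for the tested members of each of the 26 gene lists, with 1 point per gene. Filled points have an adjusted p of at most 0.05 (red higher, grey lower in the bottom fraction), open points did not pass, and bars are list medians, which range from 6.12 for type II transduction to -5.21 for epithelial proteases and inhibitors.

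Basal and precursor genes were higher in the bottom fraction than in LE, but few of them differed between the bottom and the top. Of 14 basal and precursor genes all were tested, 12 rose and none fell. SHH, the hedgehog ligand of bud precursors, read 1390, 1577, 1158 and 2306 units in the bottom fraction and 15.1, 16.6, 10.6 and 13.5 units in LE (6.82 ± 0.30). Its receptor and target PTCH1 read 2513, 1655, 3354 and 3251 units in the bottom and 10.5, 104, 118 and 166 units in LE, and 1 other tested PTCH1 probe set did not pass. The transducer SMO rose by 2.69 ± 0.70, and the transcription factors GLI1 and GLI2 rose by 2.23 ± 0.33 and 3.15 ± 0.63. LGR5 and LGR6, R-spondin receptors that mark epithelial stem cells, rose by 4.07 ± 0.34 and 5.02 ± 0.31, with 811, 939.9, 482 and 516 units of LGR6 in the bottom fraction. Between the fractions 2 of the 14 genes, GLI1 and TP63, were called higher in the bottom and none lower, with a list median of 0.26. Both calls were lost when any 1 animal was left out. SHH (bottom minus top -0.01 ± 0.26), PTCH1 (1.19 ± 0.46), LGR5 (-1.54 ± 0.66) and the list member PROX1 (-1.41 ± 0.46) did not pass. Members of the Wnt pathway went both ways. The target AXIN2 and the effector LEF1 rose by 5.30 ± 0.59 and 6.29 ± 0.35. WNT4 and WNT7B, both ligands, fell by 4.04 ± 0.48 and fell by 2.13 ± 0.30, and the Notch receptor NOTCH2 fell by 2.58 ± 0.31.

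SOX2, which is required for taste bud formation in mice, was expressed in both tissues, with 2856, 2599, 3225 and 2974 units in the bottom fraction and 1266, 1586, 1468 and 1444 units in LE. The change was 1.02 ± 0.23, the groups did not overlap, and 2 further SOX2 probe sets did not pass. TP63, the transcription factor of basal keratinocytes, read 2815, 1405, 3558 and 1284 units in the bottom and 600.2, 1038, 2100 and 1158 units in LE and did not pass (adjusted p = 0.149). Between the fractions TP63 did differ, with 88.6, 233, 788 and 176 units in the top (8.91-fold lower, bottom minus top 3.16 ± 0.47, adjusted p = 0.0224), higher in the bottom of 4 of 4 animals. TRIM29, also a basal keratinocyte gene, read 1154 ± 283 against 1114 ± 317 units (mean ± SD, n = 4) and did not pass, while 1 other tested TRIM29 probe set fell.

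The list of progenitor ligands and receptors, which holds the hedgehog, Wnt and Notch genes above, had 40 named members. Of these 33 were tested, 19 rose and 7 fell, beside 27.2% and 21.7% of all probe sets. The share that fell was near that of all probe sets. The list also held KITLG, the ligand of KIT (5.72 ± 0.76), BMP7 (4.18 ± 0.60) and FGFR2 (4.04 ± 0.60). AREG, an epidermal growth factor receptor ligand of keratinocytes, fell by 4.37 ± 0.43. Of 23 developmental transcription factors tested, 16 rose and 4 fell, beside the same shares of all probe sets. FOXA2, TOX3 and INSM1 rose by 6.82 ± 0.39, 6.21 ± 0.33 and 6.18 ± 0.37, and PROX1 by 5.51 ± 0.38. PBX3 fell by 5.67 ± 0.68, from 1977 to 3007 units in LE to 18.0 to 217 units in the bottom fraction. GRHL3, a driver of keratinocyte differentiation, fell by 3.20 ± 0.38 and EHF fell by 2.02 ± 0.33.

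Genes of DNA replication and mitosis were higher in the bottom fraction than in LE. Of 17 DNA replication genes tested 13 rose, and of 13 mitosis genes tested 12 rose, against 27.2% of all probe sets, and none fell. PCNA, the replication clamp, read 1182, 1057, 1156 and 1462 units in the bottom and 8.46, 38.0, 129 and 85.2 units in LE. TOP2A, a topoisomerase of dividing cells, read 407, 479, 550.2 and 640.2 units in the bottom and 5.52, 3.54, 5.97 and 30.4 units in LE (6.05 ± 0.61, at least 19.5-fold higher). CCNB1 and CCNB2, cyclins of mitotic entry, rose by 5.14 ± 0.57 and 4.41 ± 0.38, and the spindle checkpoint gene MAD2L1 by 4.50 ± 0.81. TYMS, which makes thymidylate, rose by 4.49 ± 0.47 and MCM3, a helicase subunit, by 3.87 ± 0.57. MCM6 rose by 4.06 ± 0.60, with CAPZA2 as the annotated name of its probe set. No bottom sample overlapped LE for 13 of the 17 replication genes and 11 of the 13 mitosis genes, beside 25.3% of all probe sets. PCNA, TOP2A, CCNB2 and TYMS were among them. CCNB2 and TYMS were under 25 units in every LE sample, so that the filter fixed this for them in advance. MKI67, the Ki-67 proliferation antigen, rose by 3.20 ± 0.75 but overlapped, with 44.8 units in LE sample 7 and 37.4 units in bottom sample 2.

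Several of these genes also differed between the bottom and the top of the buds. TOP2A read 19.8, 21.6, 112 and 14.03 units in the top of animals 7 to 10, 14.1-fold lower than in the bottom (bottom minus top 4.16 ± 0.48, adjusted p = 0.0153). TYMS was at 22.2, 11.2, 35.0 and 13.4 units in the top (3.99 ± 0.39, adjusted p = 0.00779), and CCNB2 at 12.6, 12.2, 30.2 and 10.5 units. MKI67 read 261, 37.4, 120.0 and 334 units in the bottom and 10.5 to 18.6 units in the top. Of 15 mitosis genes in this fit 7 were higher in the bottom, and of 18 replication genes 2 were, with list medians of 2.26 and 1.26 against -0.10 over all probe sets. UHRF1, a replication-linked methylation factor, was lower in the top (3.36 ± 0.49) but read 168, 144, 154 and 293 units in the bottom and 259, 386, 269.9 and 191 units in LE, where the groups overlapped. With animal 9, bottom sample 3, left out TYMS and TOP2A kept their calls and CCNB2, MKI67 and UHRF1 lost theirs, and with any other animal left out all 5 were lost. Whole CV TB were set against the same LE samples. There 9 of 18 replication genes and 5 of 15 mitosis genes were higher, against 22.9% of all probe sets by the adjusted p. In that comparison 1 replication gene, UHRF1, was lower (-2.13 ± 0.49) and 0 mitosis genes were, against 20.9% of all probe sets. At both thresholds 10.5% of all probe sets were higher and 8.28% lower.

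**Figure D3:**
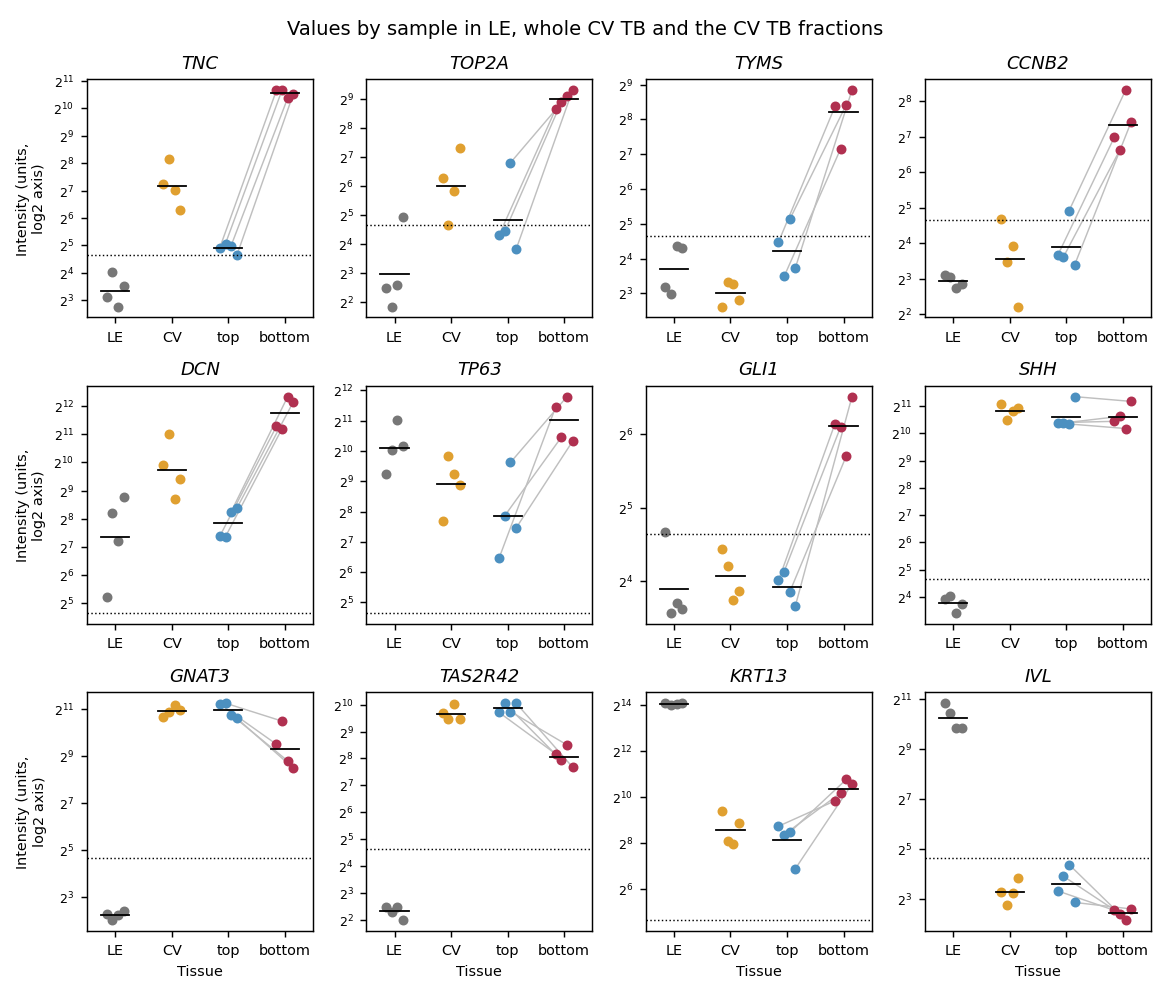
Intensity (units, log2 axes) of 12 genes in LE next to CV papillae, whole CV TB, and the top and bottom fractions of CV TB, with 4 samples each, geometric means as bars, lines joining the fractions of 1 animal and the 25-unit minimum as a dotted line. TNC, TOP2A, TYMS, CCNB2 and DCN are highest in the bottom fraction, SHH is at a like level in all TB groups, and KRT13 and IVL are highest in LE.

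Extracellular matrix genes made up a further group. Of 18 interstitial matrix and fibroblast genes tested 13 rose and none fell by the adjusted p, with a median change of 4.10. Without overlap 13 lay above LE and 2 below, beside 25.3% and 21.6% of all probe sets. Those 2 were COL6A1 (-1.88 ± 0.85) and LOX (-0.66 ± 0.27), which did not pass. COL6A1 read 3502, 200, 184 and 817 units in LE and 148 to 163 units in the bottom. COL3A1 and MGP were too dim to be tested. TNC, tenascin C, a matrix protein of epithelial-mesenchymal borders, read 1614, 1632, 1333 and 1484 units in the bottom fraction, 30.1, 33.3, 31.7 and 24.7 units in the top of the same animals and 8.55, 16.1, 6.75 and 11.4 units in LE. It differed by 7.22 ± 0.32 from LE and by 5.66 ± 0.30 from the top (adjusted p = 0.000344), and it was the only 1 of the 34 list members called between the fractions whose call held with any 1 animal left out (adjusted p 0.00628 to 0.00865). DCN, decorin, a collagen-binding proteoglycan of fibroblasts, read 2475, 2347, 5160 and 4542 units in the bottom, 166, 165, 303 and 331 units in the top and 37.5, 296, 149 and 442 units in LE. FBN1 (fibrillin 1), POSTN (periostin) and COL6A3 (collagen VI) rose by 7.62 ± 0.34, 6.31 ± 0.37 and 5.83 ± 0.32, although 1 other FBN1 probe set did not pass. FBN1 was not higher in the bottom than in the top (-0.97 ± 0.35). LUM, lumican, was higher in the bottom than in the top (2.34 ± 0.45) but read 199, 404, 456 and 551 units in the bottom and 632, 1363, 99.9 and 498 units in LE, where it did not pass, while 1 other tested LUM probe set rose. Fibroblasts of the underlying connective tissue express most genes of this list. The summed level of its 21 named members was 11790 to 15550 units in the bottom, 6666 to 8653 units in the top, 4894 to 9465 units in whole CV TB and 1874 to 5124 units in LE, and the part of captured connective tissue in these differences was not tested.

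Basement membrane and hemidesmosome genes, which anchor basal epithelial cells, were also higher, with 15 of 18 tested members raised and 1 lowered. LAMB1, a laminin β chain, read 1217, 1087, 1693 and 1580 units in the bottom and 6.59, 4.55, 40.3 and 15.9 units in LE. DST (dystonin, a hemidesmosomal plakin) read 2364, 2698, 2462 and 2519 units in the bottom, COL17A1, the hemidesmosomal collagen, rose by 5.15 ± 0.32 and COL4A5 by 5.49 ± 0.41. COL4A1 rose by 5.36 ± 0.57, with IGSF8 as the annotated name of its probe set. COL7A1, the anchoring fibril collagen, differed between the fractions (2.62 ± 0.46, adjusted p = 0.0346), and this call was lost when any 1 animal was left out, whereas LAMB1, DST and COL17A1 did not pass between the fractions (0.40 ± 0.63, 0.60 ± 0.53 and 0.23 ± 0.30, with adjusted p of 0.836, 0.679 and 0.788). HSPG2, perlecan, was the member that fell (-1.14 ± 0.32), a call that was lost in the fit of all 28 samples (adjusted p 0.00425 to 0.798 over the alternatives), and 1 other tested HSPG2 probe set did not pass.

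Keratinocyte differentiation genes were lower. Of 26 cornified envelope and differentiated keratinocyte genes tested 21 fell and 1 rose, against 21.7% of all probe sets lower. IVL, involucrin, read 1815, 1392, 900.4 and 902 units in LE and 5.79, 5.29, 4.45 and 6.01 units in the bottom fraction (-7.81 ± 0.31). CRNN, cornulin, read 11540 to 12790 units in LE and 7.27, 79.9, 152 and 142 units in the bottom fraction. ARG1, an arginase of the epidermis, fell by 7.75 ± 0.58. KRT13 and KRT4, the keratin pair of non-cornified squamous epithelium, changed by -3.71 ± 0.28 and -4.32 ± 0.57 but stayed well above the minimum, KRT13 at 909, 1157, 1738 and 1513 units and KRT4 at 241, 523, 651 and 2045 units. KRT13 was higher in the bottom than in the top (2.23 ± 0.42, adjusted p = 0.0409). KRT16, a keratin of activated keratinocytes, was the member that rose, from 687, 222, 267 and 103 units in LE to 9820, 9206, 5195 and 8732 units, and of its 2 other tested probe sets none rose and 1 fell.

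Proteases and their inhibitors, which control shedding of the cornified layer, fell in 18 of 21 tested members and rose in none. TMPRSS11E, KLK6 and SERPINB2 were followed by TMPRSS11B, which read 5889 to 8036 units in LE and 4.01, 124, 159 and 30.9 units in the bottom fraction. SERPINB5, ST14 and PRSS8 were the members that did not pass, although 1 of 2 other ST14 probe sets rose. Of 11 desmosome genes 7 fell and 2 rose. DSG1 and PKP1, components of suprabasal desmosomes, changed by -5.25 ± 0.44 and -5.31 ± 0.34, and DSG3 fell by 2.49 ± 0.37. DSG2, the desmoglein of simple epithelia, rose by 5.33 ± 0.72, but 1 other tested DSG2 probe set fell. With names from the array annotation alone, 0 desmosome genes rose and 8 of 10 fell. PKP2 rose by 3.48 ± 1.08, a call that was lost without LE samples 7 or 10 or bottom samples 1 or 4 (adjusted p 0.00195 to 0.0756). Of 6 simple epithelial keratins 4 rose. KRT20 read 1510, 1797, 1053 and 1358 units in the bottom and 8.31, 9.22, 6.26 and 11.1 units in LE, and KRT19 read 7498, 8677, 4144 and 7143 units and 32.5, 188, 373 and 29.2 units. KRT18 rose by 2.89 ± 0.33, KRT23 fell by 2.15 ± 0.33, and KRT7 did not pass (0.97 ± 0.42). KRT8, the partner of KRT18, read 95.9, 306, 44.9 and 127 units and was called in the direct comparison (1.54 ± 0.52), but the call was lost with arrays centred, within array sets and without any 1 sample other than bottom sample 3 (adjusted p 0.00649 to 0.814).

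Chemokine genes went both ways, with 3 of 11 tested members raised and 6 lowered, beside 27.2% and 21.7% of all probe sets. The share raised was near that of all probe sets. Besides CXCL14, CCL27, a chemokine of skin keratinocytes, read 224, 169.8, 962 and 203 units in the bottom and 25.1, 23.5, 18.4 and 31.3 units in LE, and it was higher in the bottom than in the top (2.53 ± 0.50, adjusted p = 0.0473, lost when any 1 animal was left out). The scavenging receptor ACKR3 rose by 3.97 ± 0.39. CXCL17, a chemokine of mucosal epithelia, read 2927, 3693, 4959 and 5300 units in LE and 23.8, 22.4, 13.5 and 25.8 units in the bottom fraction, and CCL21 fell by 3.80 ± 0.44. CXCL16 and CCR6 changed by -2.81 ± 0.34 and -2.31 ± 0.41.

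Whether these differences held within array sets was examined with the 16 samples of whole CV TB, LE, top and bottom. The difference of whole CV TB from LE, within animals of the first set, was added to the difference of the bottom from the mean of both fractions, within animals of the second set, on the assumption that a whole bud is the log average of its fractions. Under this estimate 2360 of 24398 probe sets (9.67%) were higher and 2162 (8.86%) lower at both thresholds. Of the 2703 higher in the direct comparison, 1726 were higher here too, and of the 1914 lower, 1539 were lower, with 1 called in the opposite direction. Of 292 list members tested in both, 207 passed in both with the same sign and 26 passed in the direct comparison only. Of all 5776 probe sets higher in the direct comparison by the adjusted p, 3531 were also higher within array sets. Of the 4602 lower, 3478 were also lower. Within array sets 19.1% of all probe sets were higher and 18.8% lower by the adjusted p. Both estimates use the same bottom and LE samples. Named genes that passed in both included CXCL14 (9.47 ± 0.45), SHH (7.04 ± 0.29), TOP2A (5.14 ± 0.53), TNC (6.67 ± 0.34) and TMPRSS11E (-9.05 ± 0.35). TYMS passed at a lower change, 1.30 ± 0.43 against 4.49 ± 0.47, and read 6.15, 9.96, 9.75 and 7.01 units in whole CV TB.

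Those that did not pass within array sets included COL1A1, the main fibrillar collagen (3.11 ± 0.35 in the direct comparison and 0.77 ± 0.45 within sets, adjusted p 3.99e-05 to 0.211 over the alternatives). COL1A1 read 25.2, 21.8, 21.6 and 17.4 units in whole CV TB. ITPR3, the calcium release channel of type II cells, changed from 3.33 ± 0.39 to 1.40 ± 0.59 (adjusted p 1.55e-06 to 0.0915), with 419, 551, 155 and 309 units in the bottom and 52.1, 176, 66.6 and 122 units in whole CV TB. The hyaluronan receptor CD44 changed from 1.79 ± 0.42 to 0.54 ± 0.44 (adjusted p 0.00287 to 0.359). TRIM29 was lower within array sets only (-2.39 ± 0.48). For each of these genes the mean in whole CV TB lay below the means of both fractions. COL1A1 averaged 21.5 units in whole CV TB, 63.1 in the top and 206 in the bottom. The means were 104, 470 and 358 units for ITPR3, 90.4, 179 and 240 for CD44, and 208, 995 and 1154 for TRIM29. TYMS was alike, at 8.22, 20.5 and 320 units. Array set, animals and a failure of the log-average assumption cannot be told apart in these values, and their parts were not tested.

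**Figure D4:**
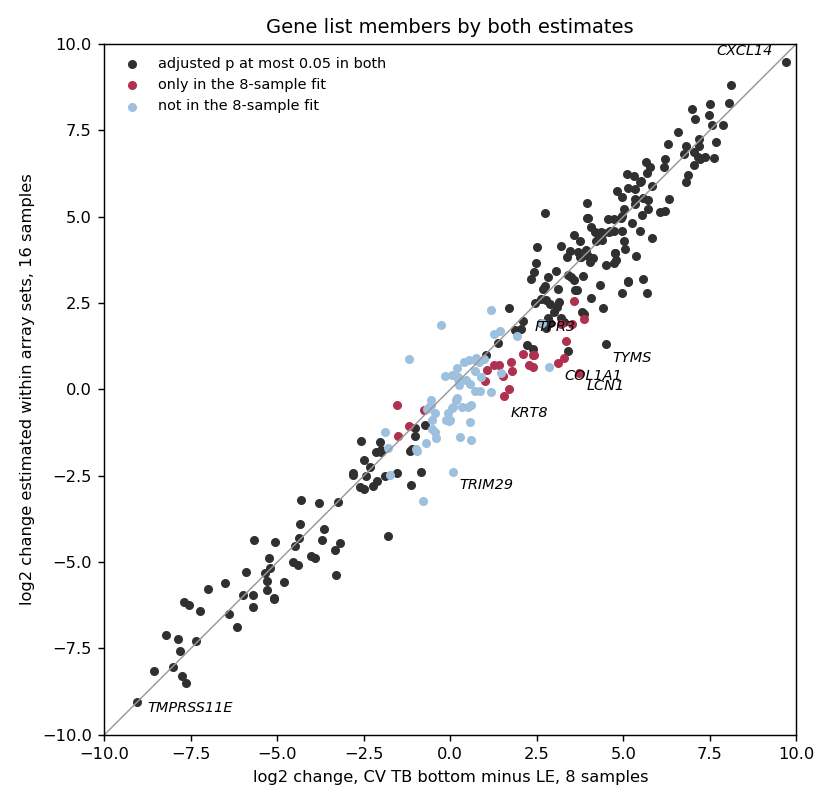
log2 change of the bottom fraction over LE for 292 gene list members, from the direct comparison of 8 samples (x axis) and from the estimate within array sets over 16 samples (y axis), with the line of equality. Of the members 207 passed in both, 26 members in red passed in the direct comparison only, and COL1A1, LCN1, KRT8 and ITPR3 lie below it.

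Markers of other cell types that captured areas could hold were read beside these results. Genes of von Ebner glands, the salivary glands that drain into the CV cleft, were higher in the bottom fraction, with 5 of 6 tested members raised. LCN1, tear lipocalin, read 526, 3846, 827 and 3717 units in bottom samples 1 to 4 and 470.4, 139, 72.8 and 42.6 units in LE, and BPIFA2 and BPIFB1, secreted salivary proteins, read 116, 1741, 721 and 1180 units and 279.6, 1608, 606 and 2505 units in the bottom. Bottom samples 2 and 4 held the highest values of LCN1, BPIFA2, BPIFB1, PIP and ZG16B, and 1 other tested PIP probe set did not pass. None of the 5 passed within array sets (LCN1 0.47 ± 1.57, adjusted p 5.37e-05 to 0.84 over the alternatives; BPIFB1 2.03 ± 1.27, adjusted p 1.5e-05 to 0.236). The summed level of the 10 named gland markers was 1586 to 8852 units in the bottom, 2237 to 3649 units in the top, 571 to 3027 units in whole CV TB and 461 to 2315 units in LE, whereas LPO, MUC7 and AQP5 stayed under 25 units in all 8 samples. The part of gland tissue in the bottom values was not tested.

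Of 5 endothelial markers tested 3 rose, and the summed level of the 9 named was 887 to 1703 units in the bottom and 196 to 429 units in LE. CLDN5, a tight junction protein that epithelia also express, rose by 4.63 ± 0.40 and also within array sets (4.59 ± 0.49). VWF rose by 2.41 ± 0.44 but not within array sets (0.99 ± 0.57, adjusted p 0.00115 to 0.201), and 1 other VWF probe set fell. PECAM1 read 752, 183, 147 and 302 units and lost its call under 12 of the alternatives, among them those without LE samples 7, 9 or 10 or bottom samples 1, 2 or 4, and the endothelial receptors KDR and FLT1 were under 25 units in all 8 samples. Of Schwann cell and axon markers S100B, NGFR and GAP43 rose, PMP22 and ERBB3 fell, and SOX10 and CDH19 were under 25 units. Of 2 other tested PMP22 probe sets, 1 rose and 1 fell. S100B read 65.7, 72.9, 106 and 121 units in the bottom, 41.8, 18.1, 17.4 and 28.1 units in the top and 23.8, 13.8, 14.8 and 23.3 units in LE, and it did not pass within array sets (0.71 ± 0.39, adjusted p 5.01e-06 to 0.179). GAP43 read 239, 342, 166 and 18.2 units, and its call was lost without LE samples 9 or 10 or bottom samples 1, 2 or 3. The smooth muscle marker TAGLN rose by 1.70 ± 0.33 in the direct comparison, whereas its change was 0.01 ± 0.41 within array sets (adjusted p 6.29e-05 to 0.985).

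Of 8 immune markers tested 3 fell and 1 rose, and of 2 melanocyte markers 1 fell and 1 rose. Of all probe sets 21.7% fell and 27.2% rose. CD1A, a Langerhans cell marker, read 48.2, 155, 312 and 132 units in LE and 8.00, 6.92, 4.74 and 7.01 units in the bottom fraction, and CD207, langerin, read 20.5 to 35.6 units in LE and 6.48 to 7.16 units in the bottom. The list members LYZ (lysozyme) and CD68 changed by -4.56 ± 0.41 and -3.90 ± 0.52. LYZ was also lower in the bottom than in the top (-2.24 ± 0.41), whereas 1 other tested CD68 probe set rose. KIT, which mast cells and melanocytes also express, rose by 3.74 ± 0.68. By in situ hybridization the study located KIT in part of the TAS1R1 taste cells of CV TB. Which cells its rise comes from was not tested. The mast cell protease CPA3 and the B cell genes MS4A1 and CD79A were under 25 units in all 8 samples. The summed level of 13 immune markers was 1210 to 2013 units in the bottom and 4889 to 6306 units in LE. MLANA, a melanocyte antigen, rose by 3.79 ± 1.02, a call lost in the methods' t-test after adjustment (adjusted p 0.0014 to 0.0517 over the alternatives), and MITF fell by 2.49 ± 0.32 with 1 other tested MITF probe set that rose, while the pigment genes TYR, TYRP1, DCT and PMEL were under 25 units. Of 7 reference genes SDHA rose by 5.05 ± 0.49, YWHAZ fell by 1.99 ± 0.25 (1 of 2 other tested probe sets also fell) and ACTB, GAPDH, B2M, HPRT1 and TFRC did not pass.

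**Figure D5:**
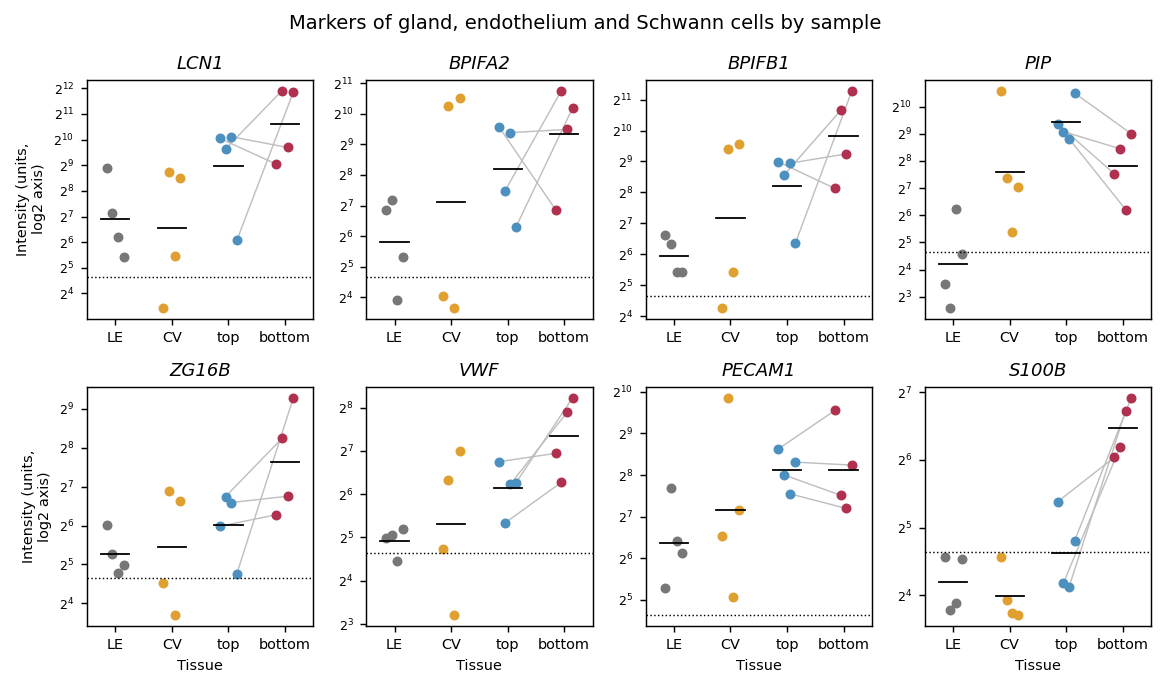
Intensity (units, log2 axes) of 5 gland markers, 2 endothelial markers and S100B in LE, whole CV TB, and the top and bottom fractions of CV TB, with 4 samples each, geometric means as bars, lines joining the fractions of 1 animal and the 25-unit minimum as a dotted line. LCN1 reaches 3846 units in bottom sample 2, and 2 of the 4 whole CV TB samples lie under 25 units for BPIFA2.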

How the data were processed

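Laser-captured CV bottom fractions and LE were measured on Affymetrix Rhesus Macaque Genome arrays after amplification with a NuGEN kit. The authors normalised all 28 arrays together with GC-RMA in GeneSpring GX, and the deposited values are linear intensity units, with software versions not given in the sources used here. All columns of the table were used or belong to other tissues of the study, and 0 were left unassigned. Of 52024 probe sets, 25778 carried a symbol, from the array annotation (24956) or from a table of the study (1997), and the sources named different genes for 125 of the 1175 probe sets in both. The study chose its table as higher in TB on these samples, so that representative probe sets taken from it favour higher values in TB.

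Intensities were converted to log2 and tested with limma 3.58.1 in R 4.3.3, with Benjamini-Hochberg adjustment over all probe sets that reached 25 units in 4 or more samples. Probe set counts used an adjusted p of at most 0.05 and at least 5-fold, and single genes used the adjusted p alone. The direct comparison held 8 samples and 6 residual degrees of freedom. The fit of 16 samples had the animal as a block, also with 6 residual degrees of freedom. The animal pairs these samples by design. Deviations of bottom and top correlated at a mean of 0.12 within and -0.04 between animals, and those of whole CV TB and LE at 0.07 and -0.02. The comparisons share samples and are given side by side. The number of arrays limits the precision, and p-values measure only the spread between these samples. The scripts were tested on simulated data.

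Named genes were the 10 largest changes in each direction and, from each list, up to 4 members with the largest changes, with all members of short lists and of the lists of receptors and taste cell types. The 10 largest changes were taken only among probe sets past both thresholds whose bottom and LE samples did not overlap. The members and lists were chosen with earlier results of these data known. Genes named for the comparison of the fractions, for a lost call or beyond this rule were chosen after their values were seen. Alternatives changed the low values, scaling, filter, samples, sex term, array set and test, and, after seeing the data, the probe set and the source of names. Single genes that fit the naming rule but are left out of the text are not reported here.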

Additional observations from a re-analysis of the deposited data

Results flagged for a closer look

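In 15 of 268 groups of 4 samples, 1 sample lay far from the other 3 by Dixon's criterion, which chance alone meets in about 1 in 20 groups. Bottom sample 3 was low for HEY1 (1500 units, others 2050 to 2110), FOXA2 (441 units, others 1080 to 1170) and KRT18 (403 units, others 794 to 835). Bottom sample 2 was high for IL36A (28.6 units, others 11 to 11.3) and low for HES1 (87.9 units, others 113 to 114) and MLANA (55.3 units, others 370.0 to 491). Bottom sample 4 was high for TAS2R48 (197 units, others 63.7 to 65.1) and SYT13 (215 units, others 154 to 162), and bottom sample 1 was low for CCL21 (14.8 units, others 37.7 to 41.6).

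Among LE samples, sample 7 was low for PTCH1 (10.5 units, others 104 to 166) and KRT23 (5150 units, others 7810 to 8420) and high for GLI1 (25.3 units, others 11.8 to 13.1). LE sample 8 was high for PTPRD (89.6 units, others 5.03 to 8.03). LE sample 9 was low for CLDN5 (12 units, others 24.7 to 26.7) and high for MLANA (140.0 units, others 7.69 to 11.3).

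TAGLN, a smooth muscle gene, averaged 161 units in the bottom fraction, 46.8 units in LE and 27.8 units in whole CV TB, so that every bottom sample lay above and every whole CV TB sample below the LE samples. The difference between these 2 contrasts was not tested.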

How the results depend on the processing

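The count of probe sets higher in the bottom fraction than in LE stayed within 1.5 times of 2703 under all alternatives except the filter at 100 units (1725), and the count lower within 1.5 times of 1914 except in the fit of all 28 samples with all LE (1262). With 1 sample left out the counts were 2462 to 2996 and 1830 to 1964. Whole CV TB against LE had 2560 higher probe sets, or 1686 with values under 25 raised to 25. The counts between the fractions rested on all 4 animals. They fell from 98 higher and 67 lower to 4 to 20 and 0 to 9 with 1 animal left out (7 and 1 without animal 7, 5 and 1 without animal 8, 20 and 9 without animal 9, 4 and 0 without animal 10), and the cause was not tested.

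No paired analysis was possible because the bottom fraction and LE came from different animals. Without the animal block, the fractions differed by 112 higher and 85 lower probe sets and whole CV TB and LE by 2562 and 2027.

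Of 134 named genes tested, 118 kept their direction and side of the threshold within array sets, 12 no longer passed and 4 changed sign (TRIM29 -2.39, KRT8 -0.19, the prohormone gene PCSK1N -0.04 and the endothelial cadherin CDH5 -0.46). TRIM29 also changed sign with arrays centred (-0.24), without LE sample 7 (-0.13), without bottom sample 2 (-0.08, with a range of -0.13 to 0.20 over samples left out) and in the fit of all 28 samples (-0.28). GNB1 did so with arrays centred (-0.07) and CDH5 in the methods' t-test, with or without adjustment (-0.42). The cause was not tested. With names from the array annotation only, 6 of 7 tested type II genes rose, and of 5 type III genes 3 rose and 2 fell. Values under 25 units lie near the array's background and limit the folds of dim genes.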
